A study of Homo sapiens with 10 samples.

Results

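Sideroflexins are carrier proteins of the inner mitochondrial membrane, and the human family has 5 genes, SFXN1 to SFXN5. The 5 symbols were matched through GENCODE to 5 of the 63677 Ensembl gene identifiers counted in each library. SFXN3 was selected on its lower counts in the VEN-insensitive lines, so its difference between the groups is a description and carries no test. SFXN1, SFXN2, SFXN4 and SFXN5 were taken because they are its paralogues, whatever their values.

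The RNA came from RS4;11, an established cell line of B-cell precursor acute lymphoblastic leukemia. VENins lines were 5 cultures of RS4;11 made insensitive to the BCL-2 inhibitor venetoclax (VEN) by stepwise raised concentrations and then kept under the drug, which was washed off before analysis. VENsens lines were 5 parallel cultures of the same parental line that received the solvent DMSO. Each line gave 1 library, with 20631907 to 28323643 reads counted on genes, where the middle VENsens library had 24010870 and the middle VENins library 24611645. The labels name no genetic change in either group, and all lines descend from 1 parental line. The p-values of the main fit measure the spread left between these lines after a term for line number. Across all genes VENins line 5 stood furthest from the other lines of its group (chi-square over degrees of freedom 13.2 to 14.2 against each, and at most 9.72 for any other pair of lines within a group).

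The libraries carried the markers of precursor B cells. All 13 of 13 such markers stood at 1 CPM (read counts per 1000000 counted on genes, scaled by TMM) or more on average, and their summed level was 4547 ± 63.7 CPM (SD, n = 5) in VENsens and 4587 ± 291 in VENins lines, with TCF3 the most abundant at 799 CPM. PAX5, a transcription factor that sets B-cell identity, was the 1 marker of the 13 that passed the test, beside 0.197% of all tested genes, with 783 ± 42.9 CPM in VENsens and 631 ± 34.7 in VENins lines and a log2 fold change of -0.31 ± 0.05 (SE, adjusted p = 0.0272 in edgeR's quasi-likelihood test with Benjamini-Hochberg adjustment, lower in 5 of 5 pairs of lines with the same number). At an unadjusted p under 0.05, 3 of the 13 were higher (CD79B, IGLL1 and VPREB1, all parts of the precursor B-cell receptor, with log2 fold changes of 0.24, 0.17 and 0.14) and 3 were lower, PAX5 among them. Summed T-cell markers reached 1.21 and 1.08 CPM in the VENsens and VENins lines, with CD3E highest at 0.859 CPM and CD8A at 0. Erythroid markers summed to 0.081 and 0.042 CPM, with HBA1 and HBA2 at 0. Myeloid markers summed to 16.8 and 17.2 CPM, led by CSF1R at 9.51, and stromal markers to 17.3 and 16.0 CPM, led by PDGFRB at 13.9, with DCN and LUM at 0. On average 3 of 8 myeloid, 2 of 6 stromal, 0 of 7 T-cell and 0 of 6 erythroid markers also reached 1 CPM. Of the precursor B-cell markers, BLNK and DNTT averaged 3.18 and 6.02 CPM, below CSF1R and PDGFRB.

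SFXN1 brings serine into mitochondria, where the folate pathway takes one-carbon units from it, and SFXN3 can carry out the same transport. SFXN2 has been linked to mitochondrial iron and haem, SFXN4 to iron-sulfur clusters and the assembly of respiratory complex I, and SFXN5 is the least studied of the family. The TIM22 complex inserts sideroflexins and other carriers into the inner membrane.

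All 5 members passed the filter on low counts, as did 16756 genes in all. SFXN3 is a gene on chr10:101031234-101041244 (GRCh38, plus strand), SFXN2 lies 1.67 Mb further along the same chromosome and SFXN4 another 16.4 Mb beyond it, while SFXN1 is on chromosome 5 and SFXN5 on chromosome 2. These positions come from GENCODE 29 and the reads had been counted on GRCh37. SFXN3 overlaps PDZD7 on the opposite strand with 0 shared exon bases, and SFXN5 shares 39 bases, 0.352% of its exons, with RAB11FIP5.

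PDZD7 transcripts also start on the opposite strand just before the SFXN3 start. RefSeq (GRCh38.p14) held 8 promoter entries for the 5 members, and the unbroken stretches directly before an SFXN3 and an SFXN4 start that lie in no annotated exon are shown. SFXN3 is shown as the member the family was chosen by, and SFXN4 for comparison, as the member whose 250 bases upstream touch no annotated exon. The SFXN3 stretch is chr10:101031156-101031233 on the plus strand, 78 bases long, and the SFXN4 stretch is chr10:119165715-119165964 on the minus strand, 250 bases long. The latter belongs to the farther upstream of 2 SFXN4 entries and ends 47 bases before the GENCODE start of the gene. Both are written 5′ to 3′ and end at the base before the RefSeq start, and capitals mark CCAAT or GGGCGG on either strand.
SFXN3: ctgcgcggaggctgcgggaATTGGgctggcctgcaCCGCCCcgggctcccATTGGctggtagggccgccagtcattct
SFXN4: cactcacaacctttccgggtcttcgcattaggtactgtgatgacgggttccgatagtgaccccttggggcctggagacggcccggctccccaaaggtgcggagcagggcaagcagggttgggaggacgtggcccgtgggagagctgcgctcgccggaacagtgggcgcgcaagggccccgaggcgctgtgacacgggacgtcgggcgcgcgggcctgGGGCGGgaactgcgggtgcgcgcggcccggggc

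The SFXN3 stretch held 2 CCAAT matches and 1 GGGCGG match, and the SFXN4 stretch held 0 and 1. In the 250 bases of the other SFXN4 entry, chr10:119165693-119165942, there were 0 and 3. The SFXN3 stretch is shorter than 250 bases, and the full 250 bases before the SFXN3 start also held 2 and 1. Over the 250 bases before each of 35116 promoter entries, 32.0% had CCAAT and 42.6% had GGGCGG on either strand. The E-box CACGTG (6.34% of entries), the cAMP response element TGACGTCA (1.65%) and the ATF4-type element TGATGNAAN (3.13%) were also searched on both strands. Of the 8 family entries, the SFXN2 entry had 1 E-box and none had either of the last pair. A match describes the letters in this window and nothing about binding.

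SFXN3 had lower counts in 4 of the 5 VENins lines than in every VENsens line. Its level was 52.5, 47.6, 50.9, 55.6 and 51.4 CPM in VENsens lines 1 to 5 and 34.3, 33.8, 36.7, 49.5 and 37.6 CPM in VENins lines 1 to 5. VENins line 4 stood apart from the other VENins lines and above VENsens line 2, and the groups overlapped only there. The group means were 51.6 ± 2.90 CPM and 38.4 ± 6.39 CPM (SD, n = 5), a log2 fold change of -0.44 ± 0.07 (SE) or 0.739-fold. Set against the VENsens line of the same number, the VENins lines differed by -34.6%, -28.9%, -27.9%, -11.0% and -26.8%. Of all tested genes, 2.40% had a smaller log2 fold change, a place that the choice of SFXN3 fixes. Without pair 4 the log2 fold change was -0.51. In bulk RNA, fewer cells that express a gene and less RNA of it per cell cannot be told apart.

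The depth gave each value a known precision. For SFXN3 the number of reads ran from 982 to 1444 in VENsens and from 731 to 1259 in VENins lines, for which counting error alone is 2.83% and 3.30%. Its coefficient of variation between lines was 5.63% over VENsens and 16.6% over VENins lines, and the latter rests on VENins line 4, since the other VENins lines lay between 33.8 and 37.6 CPM. Lines are separate cultures, so a spread beyond counting error is no finding, and the spreads were not tested. For SFXN1 the coefficients were 3.25% and 6.21%, with 2.03% and 2.08% from counting. SFXN5 had the fewest reads, 227 to 324 per library, with 6.02% and 6.31% from counting and 10.4% and 6.38% between lines.

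**Figure D1:**
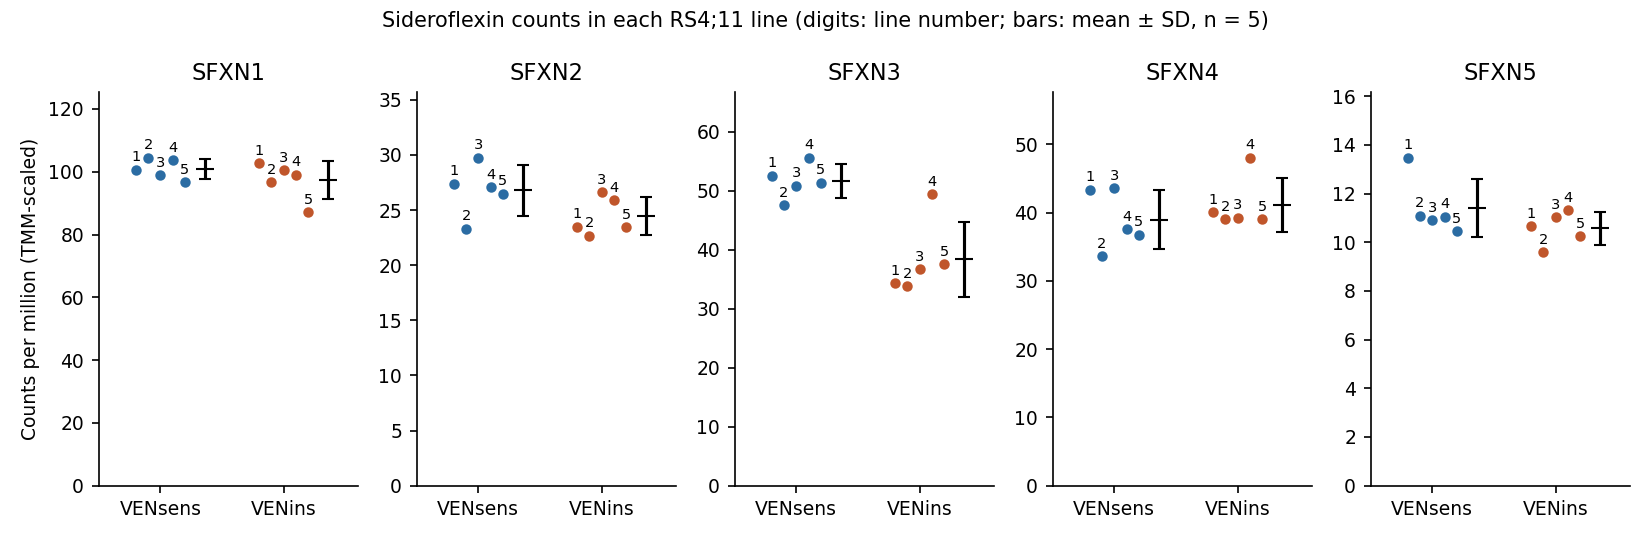
TMM-scaled CPM (vertical axes, from 0) of each sideroflexin in the 5 VENsens (blue) and 5 VENins (orange) lines, 1 point per library with its line number, and the mean ± SD in black. SFXN3 lies at 33.8 to 37.6 CPM in 4 VENins lines and at 49.5 in line 4, and the groups of the other members overlap.

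SFXN1, the main mitochondrial serine importer, was close in both groups. It stood at 100.6, 104.5, 98.9, 103.6 and 96.6 CPM in VENsens lines 1 to 5 and at 102.8, 96.8, 100.4, 99.0 and 87.2 CPM in VENins lines 1 to 5. The groups overlapped between 96.6 and 102.8 CPM, with VENins line 5 lowest of the 10. The log2 fold change was -0.05 with a 95% interval from -0.17 to 0.06, and it did not pass edgeR's quasi-likelihood test (adjusted p = 0.668, Benjamini-Hochberg). With length and GC splines it was -0.01.

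SFXN2, the member linked to iron and haem, had a slightly lower mean in the VENins lines. Its level was 27.4, 23.3, 29.8, 27.1 and 26.5 CPM in VENsens lines 1 to 5 and 23.5, 22.7, 26.6, 25.9 and 23.4 CPM in VENins lines 1 to 5. Each VENins line was below the VENsens line of its number, yet VENsens line 2 lay below 4 VENins lines. The log2 fold change of -0.13 had a 95% interval from -0.27 to 0.01 and did not pass edgeR's quasi-likelihood test (adjusted p = 0.332). With length and GC splines it was -0.07.

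SFXN4, which acts in complex I assembly, was the member with a higher mean in VENins lines. It stood at 43.3, 33.6, 43.5, 37.6 and 36.8 CPM in VENsens lines 1 to 5 and at 40.1, 39.0, 39.3, 48.1 and 39.0 CPM in VENins lines 1 to 5. VENins line 4 was again the highest of its group, and 4 VENins values lay inside the VENsens range. The log2 fold change was 0.08, with a 95% interval from -0.08 to 0.24 and an adjusted p of 0.657 in edgeR's quasi-likelihood test. The value moved with the pairs used, from 0.01 without pair 4 and 0.04 without pair 2 to 0.13 without pair 1 and 0.14 without pair 3.

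SFXN5 had the fewest counts. Its level was 13.5, 11.1, 10.9, 11.1 and 10.5 CPM in VENsens lines 1 to 5 and 10.7, 9.60, 11.0, 11.3 and 10.2 CPM in VENins lines 1 to 5. VENsens line 1 stood above all others, and the remaining values of both groups were mixed. The log2 fold change of -0.10 had a 95% interval from -0.29 to 0.08 and did not pass edgeR's quasi-likelihood test (adjusted p = 0.592). Without pair 1, which holds the high VENsens line, it was -0.05, and with length and GC splines -0.03.

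Of the 4 paralogues, 0 were called by edgeR at an adjusted p under 0.05, 0 had an unadjusted p under 0.05, and 0 were called by DESeq2 with or without the line number. Over all 16756 tested genes, edgeR called 33, or 0.197%, of which 6 were higher and 27 lower in VENins lines. The split differed between fits, with 49 of 149 called genes higher in edgeR without the line number. It was 70 of 156 with length and GC splines, where 16312 genes were tested. In DESeq2 it was 67 of 217 with the line number and 358 of 739 without it. An unadjusted p under 0.05 was found for 16.2% of tested genes (7.79% higher and 8.38% lower), and DESeq2 with the line number called 1.3%. The number of genes called moved strongly with the lines used, at 57, 6, 17, 331 and 9 without pairs 1 to 5. Groups that did not overlap were found for 4.66% of tested genes and for 0 of the 5 sideroflexins.

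Per kilobase of annotated exons, SFXN4 was the most abundant member. In VENsens lines SFXN4 had 20.9 ± 2.33 CPM per kb, SFXN1 13.3 ± 0.434, SFXN3 11.1 ± 0.627, SFXN2 3.34 ± 0.289 and SFXN5 1.03 ± 0.107 (SD, n = 5). In VENins lines the order was the same, with SFXN4 at 22.0 ± 2.10, SFXN1 at 12.8 ± 0.797, SFXN3 at 8.29 ± 1.38, SFXN2 at 3.04 ± 0.215 and SFXN5 at 0.953 ± 0.061 CPM per kb. Each neighbouring pair in this order was further apart than its SDs. These values depend on the length used. With the length of the principal transcript the VENsens means were 28.6 for SFXN4, 23.8 for SFXN1 and 2.75 for SFXN5. In VENsens line 2 SFXN1 (24.7) was then above SFXN4 (24.6). The shares that follow use annotated exons. SFXN3 made up 22.4 ± 1.15% of the family sum per kb in VENsens and 17.5 ± 1.59% in VENins lines, while SFXN4 made up 41.9 ± 2.51% and 46.6 ± 1.00%.

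The ratio of the serine carriers SFXN3 and SFXN1 was lower in most VENins lines. There were 0.512 ± 0.033 SFXN3 counts per SFXN1 count in VENsens and 0.396 ± 0.069 in VENins lines, with VENins line 4 (0.50) above VENsens line 2 (0.455). For SFXN3 over SFXN4 the ratio was 1.34 ± 0.136 and 0.930 ± 0.071, and there every VENins line was below every VENsens line. SFXN4 was also high in VENins line 4. The ratio to SFXN2 was 1.93 ± 0.139 and 1.57 ± 0.207 and that to SFXN5 4.56 ± 0.466 and 3.62 ± 0.453, both with overlapping groups. Counts of all 5 members summed to 230 ± 8.10 CPM and 212 ± 14.1 CPM, and without SFXN3 to 178 ± 6.42 and 173 ± 9.46 CPM. The ratios and the sum of all 5 members hold SFXN3, which was selected on this difference, and no ratio or sum was tested.

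**Figure D2:**
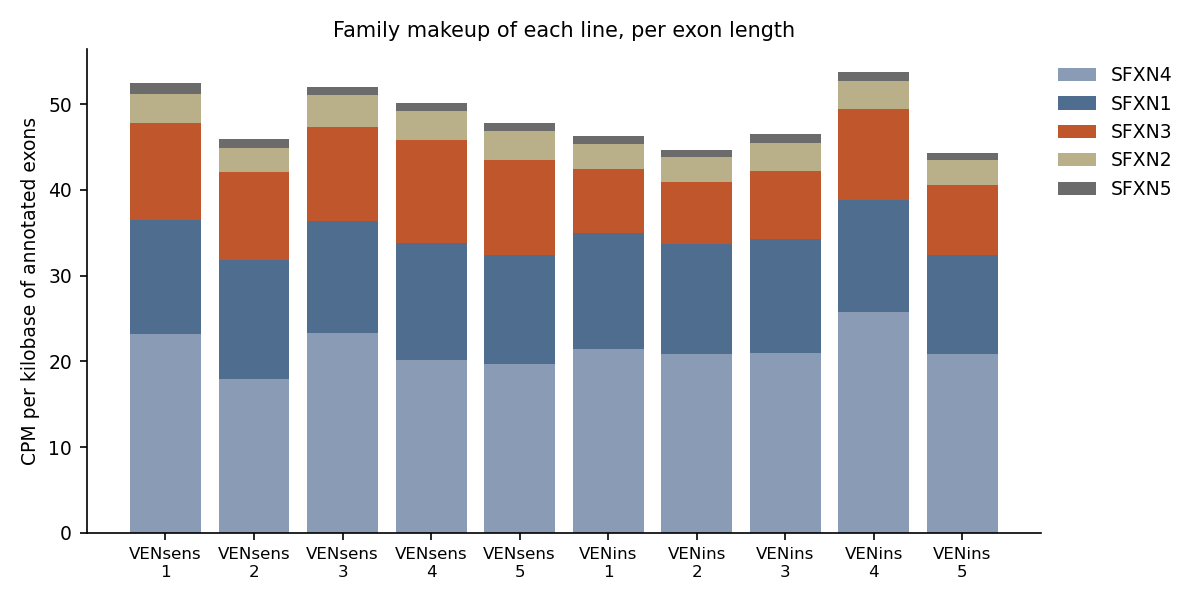
Stacked bars of CPM per kilobase of annotated exons (vertical axis) for the 5 sideroflexins in each of the 10 lines, 1 library per bar. The SFXN3 layer averages 11.1 in VENsens and 8.29 in VENins lines, and SFXN4 is the tallest layer in each bar.

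The genes with a profile most like that of SFXN3 shared its high value in VENins line 4. Among 11137 protein-coding genes with a mean of at least 1 CPM, the highest Pearson correlations of log2 CPM over the 10 libraries were those of ANGPT1 (0.97), PTPN9 (0.97), ADGRE5 (0.97), FRMPD1 (0.96) and POLR1A (0.96). The libraries share the 2 groups and the scaling, and within the groups, after the group means were taken off, the values were 0.91, 0.93, 0.90, 0.91 and 0.88. ANGPT1, a secreted ligand of the receptor TIE2, went from 3.10 ± 0.593 to 1.27 ± 0.413 CPM, with VENins line 4 at 1.97. ADGRE5, the adhesion receptor CD97, went from 29.6 ± 0.958 to 23.2 ± 3.62 CPM, with VENins line 4 at 29.5. FRMPD1 stood at 4.71 CPM in VENins line 4 and at 1.31 to 1.87 in the other VENins lines. PTPN9, a protein tyrosine phosphatase, and POLR1A, the largest subunit of RNA polymerase I, had smaller differences, with log2 fold changes of -0.18 and -0.15. These 5 genes were found by their likeness to SFXN3, so no test is given.

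**Figure D3:**
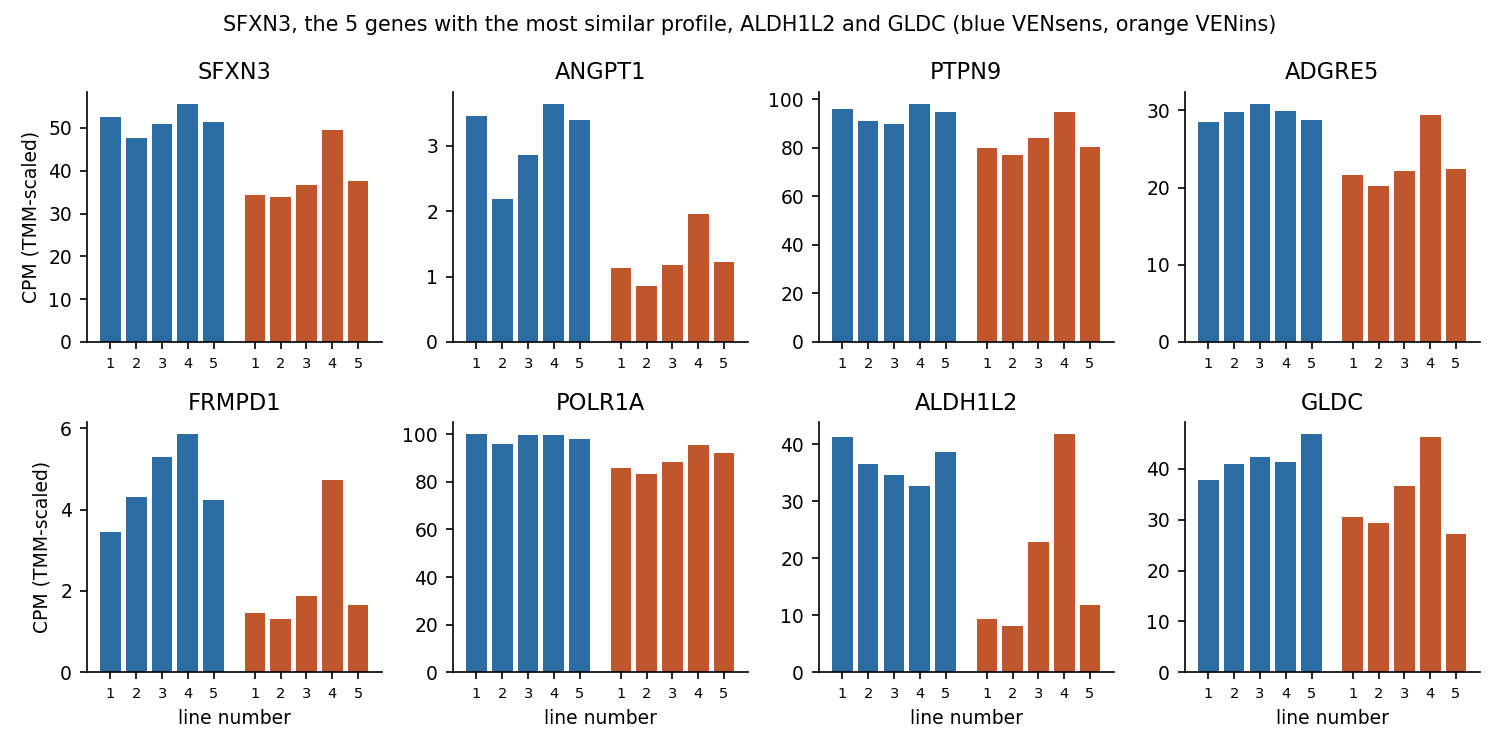
CPM (vertical axes, from 0) of SFXN3, the 5 genes with the highest correlation to it, and the mitochondrial folate and glycine enzymes ALDH1L2 and GLDC in each VENsens (blue) and VENins (orange) line, by line number. In VENins line 4 SFXN3 is at 49.5 CPM, ALDH1L2 at 41.7 and GLDC at 46.3, the highest of the VENins lines for each.

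Around SFXN3 the tested neighbours LZTS2, KAZALD1 and PDZD7 had negative log2 fold changes and TWNK a positive one. TWNK, the mitochondrial DNA helicase, had a log2 fold change of 0.04, LZTS2 of -0.07 and KAZALD1 of -0.05, while TLX1 and LBX1 had 0 counts. For PDZD7, which overlaps SFXN3, the log2 fold change was -0.22 (unadjusted p = 0.0362 and adjusted p = 0.275 in edgeR's quasi-likelihood test). PDZD7 was higher in 1 of 5 pairs, with 12.8 CPM in VENins line 4 and 9.40 to 12.5 in the other VENins lines. Within 5 Mb of SFXN3, 60 of 106 tested genes were lower in VENins lines with a median log2 fold change of -0.02, and edgeR and DESeq2, both with the line number, called 0 of them, with 12 lower and 7 higher at an unadjusted p under 0.05. Over all 30 protein-coding neighbours of the 5 members, 21 were tested, edgeR called 0, 2 were higher and 5 lower at an unadjusted p under 0.05, and DESeq2 with the line number called 0. Over all tested genes 7.79% were higher and 8.38% lower at that threshold.

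The pathways in which sideroflexins take part were covered by 8 lists with 102 genes, 97 of them tested. Of these 97 edgeR called 0, DESeq2 called 1 with the line number and 7 without it, and an unadjusted p under 0.05 was found for 14 that were higher and 6 that were lower in VENins lines. That is 20.6% of the list genes beside 16.2% of all tested genes. Of all 16756 tested genes, edgeR called 0.197%, and DESeq2 called 1.3% with the line number and 739 genes without it. The median log2 fold change of the 97 genes was 0.05 with 63 higher, beside 0.00 over all tested genes with 8558 of 16756 higher.

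Serine synthesis supplies the substrate of SFXN1 and SFXN3, and the median log2 fold change of its 3 enzymes was 0.07 (-0.01 without pair 5 and 0.12 without pair 1). PHGDH, the entry enzyme, stood at 321 ± 22.1 CPM in VENsens and 339 ± 45.5 in VENins lines, PSAT1 at 298 ± 9.92 and 316 ± 17.1, and PSPH at 40.2 ± 2.88 and 39.2 ± 3.46, and edgeR called 0 of them, as did DESeq2 with or without the line number, with 0 at an unadjusted p under 0.05. Among 8 tested carriers of serine and neutral amino acids in the plasma membrane, 6 were lower and the median was -0.07 (-0.04 without pair 1), with SLC38A2 at -0.15 and SLC38A1 at -0.13. edgeR and DESeq2 (with or without the line number) called 0 of the 8, and at an unadjusted p under 0.05 these 2 were lower and 0 were higher. Neither of those sodium-coupled carriers passed edgeR's quasi-likelihood test (adjusted p = 0.220 and 0.290), and SLC7A5, the large neutral amino acid carrier, had a log2 fold change of -0.09.

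Inside mitochondria, the enzymes that take up the serine carbon had similar counts in both groups. SHMT2, which splits serine to glycine, stood at 596 ± 38.3 and 577 ± 64.2 CPM, MTHFD2 at 506 ± 15.1 and 502 ± 30.5, and MTHFD1L at 88.1 ± 7.47 and 87.0 ± 6.78. The folate carrier SLC25A32 had a log2 fold change of -0.05 and the cytosolic SHMT1 of 0.00. Over the 18 tested folate genes the median was -0.02 with 4 higher (0.01 without pair 1 and -0.05 without pair 4). edgeR called 0 of them, with 2 higher and 2 lower at an unadjusted p under 0.05. DESeq2 called 0 with the line number and 2 without it, beside 739 of all 16756 tested genes without it.

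ALDH1L2, the mitochondrial enzyme that oxidises formyl-tetrahydrofolate, had the lowest log2 fold change of the folate list at -1.19 ± 0.27 (SE). It stood at 41.3, 36.6, 34.7, 32.6 and 38.6 CPM in VENsens lines 1 to 5 and at 9.40, 8.05, 22.8, 41.7 and 11.8 CPM in VENins lines 1 to 5. Thus 4 VENins lines were below every VENsens line and VENins line 4 was above every one of them. It did not pass edgeR's quasi-likelihood test (adjusted p = 0.0792). Leaving out pair 4, which holds that line, gave a log2 fold change of -1.62 (adjusted p = 4.68e-05, edgeR), a value that depends on removing the contrary line, while leaving out each other pair gave adjusted p of 0.0865 to 0.518. GLDC, the glycine decarboxylase, also had the same 4 VENins lines below every VENsens line, at 27.2 to 36.6 CPM, and VENins line 4 at 46.3 CPM. Its log2 fold change was -0.32 (adjusted p = 0.149, edgeR). It was -0.44 (adjusted p = 0.0120, edgeR) without pair 4 and -0.20 without pair 5. Leaving out each pair other than pair 4 gave edgeR adjusted p of 0.163 to 0.575. With no filter on low counts both genes passed edgeR's test, at the same fold changes (adjusted p = 4.995e-42 for ALDH1L2 and 0.00251 for GLDC), and under the other alternatives with all lines neither did. The other glycine cleavage genes AMT and DLD had log2 fold changes of 0.01 and -0.06, and of the 4 genes of that list edgeR and DESeq2 (with or without the line number) called 0, with 1 lower and 0 higher at an unadjusted p under 0.05.

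GGH, the lysosomal folate hydrolase, stood at 94.6 ± 4.58 CPM in VENsens and 106 ± 2.75 in VENins lines, and the groups did not overlap, as for 4.66% of tested genes. It did not pass edgeR's quasi-likelihood test (log2 fold change 0.16, adjusted p = 0.180, higher in 5 of 5 pairs). DESeq2 did not call GGH with the line number (adjusted p = 0.161) and called it without the line number (adjusted p = 0.0229).

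For iron, haem and complex I, where SFXN2 and SFXN4 act, most listed genes had slightly higher counts in VENins lines. Of 18 tested iron-sulfur cluster genes 15 were higher, with a median log2 fold change of 0.11, of 15 haem and iron import genes 12 were higher (median 0.05), and of 19 complex I assembly factors 18 were higher (median 0.09). edgeR called 0 in each of the 3 lists, with 4, 1 and 5 higher and 1, 0 and 0 lower at an unadjusted p under 0.05, and DESeq2 called 1, 0 and 0 with the line number and 1, 1 and 2 without it. Over all tested genes 51.1% were higher, with 7.79% higher and 8.38% lower at an unadjusted p under 0.05. DESeq2 called 1.3% of all tested genes with the line number and 739 of 16756 without it. Without pair 5 the haem and iron import median was 0.01 and without pair 2 it was 0.02. GLRX5, a glutaredoxin that hands on iron-sulfur clusters, was the 1 gene of these lists that DESeq2 called with the line number. It had 111 ± 6.04 CPM in VENsens and 130 ± 5.85 in VENins lines, higher in 5 of 5 pairs. Its log2 fold change was 0.22, with adjusted p of 0.0991 in edgeR and 0.0385 in DESeq2 with the line number. GLRX5 was also called by edgeR without the line number (adjusted p = 0.0492) and by edgeR with no filter on low counts (adjusted p = 0.0250). Without the line number DESeq2 called GLRX5, TMEM14C, TMEM70 and DMAC1, with adjusted p of 0.00309, 0.0122, 0.0106 and 0.0364.

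Among other genes of these lists, BOLA3 (log2 fold change 0.26) and IBA57 (-0.22), late-acting cluster assembly factors, lay in opposite directions. TMEM14C, which moves the haem precursor across the inner membrane, had 66.9 ± 2.24 and 76.7 ± 4.77 CPM (adjusted p = 0.136 in edgeR), and the iron importer SLC25A37 and the haem enzyme PPOX had log2 fold changes of 0.10 and 0.11. Of the complex I assembly factors, TMEM70 had 67.8 ± 2.31 and 76.5 ± 2.35 CPM and DMAC1 55.5 ± 1.9 and 61.9 ± 2.68, both without overlap, as for 4.66% of tested genes, and with adjusted p of 0.155 and 0.192 in edgeR, and NDUFAF8 a log2 fold change of 0.23. The core assembly factors ECSIT, NDUFAF1, ACAD9 and TMEM126B had 0.06, 0.09, 0.03 and 0.12. SFXN4, at 0.08 with all lines and 0.01 without pair 4, had a value beside a list median of 0.09.

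The TIM22 pathway, which inserts the sideroflexins, had 8 of 13 tested genes higher and a median log2 fold change of 0.10, and edgeR called 0, with 2 higher and 0 lower at an unadjusted p under 0.05 and DESeq2 calling 0 with the line number and 1, TIMM9, without it. Of all 16756 tested genes DESeq2 called 739 without the line number. Without pair 5 the list median was 0.02, and without pair 2 it was 0.06. TIMM22, the channel, had a log2 fold change of 0.10, TIMM29 of 0.02 and AGK, the lipid kinase that is also a TIM22 subunit, of -0.21 at 7.05 ± 1.16 and 6.05 ± 0.691 CPM. The small chaperone TIMM9 stood at 44.4 ± 2.44 and 50.8 ± 3.24 CPM and TOMM40, the outer membrane pore, at 80.9 ± 10.2 and 90.0 ± 8.75. None of these 5 passed edgeR's quasi-likelihood test, with TIMM9 lowest at an adjusted p of 0.156.

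**Figure D4:**
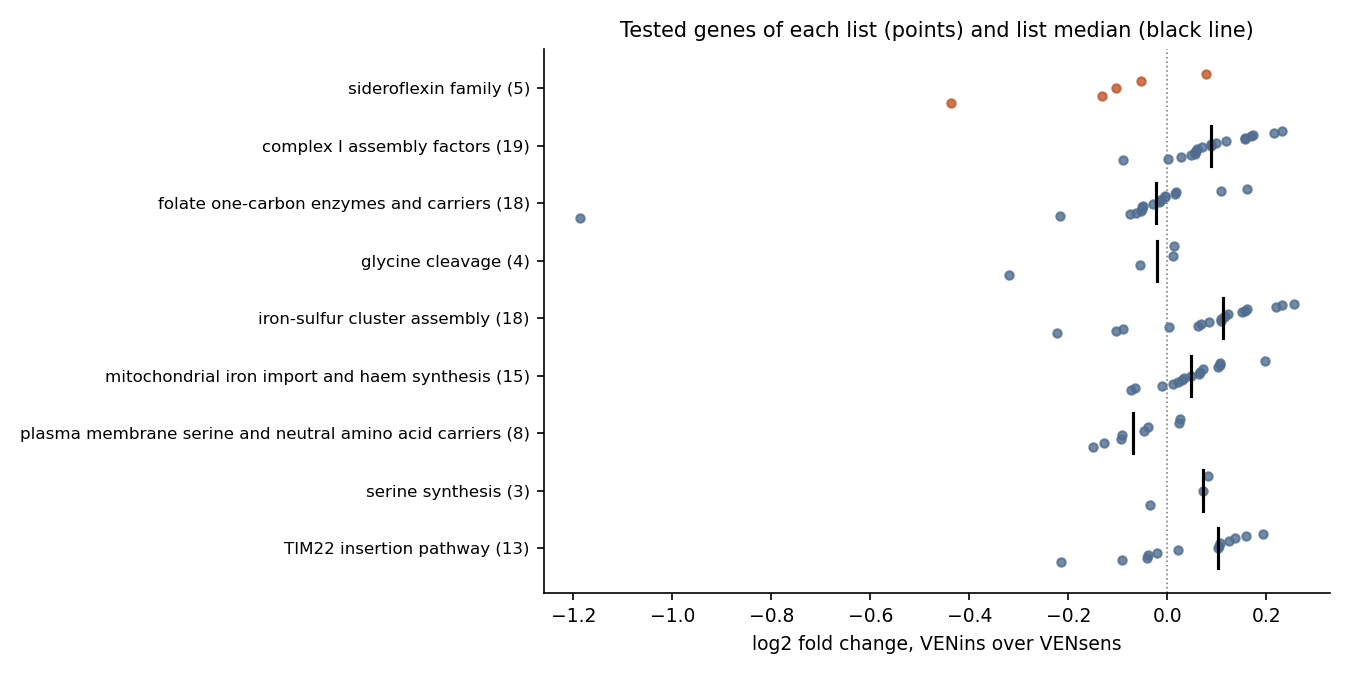
log2 fold change of VENins over VENsens lines (horizontal axis) for the tested genes of 8 pathway lists and the 5 sideroflexins, 1 point per gene, with the number tested in brackets and each list's median as a black line. SFXN3 is at -0.44 and ALDH1L2 at -1.19, and the list medians lie between -0.07 and 0.11.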

How the data were processed

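RNA of 10 RS4;11 lines (5 VENsens, 5 VENins, 1 library each) had been sequenced from libraries of an unstranded TruSeq kit. The authors deposited raw read counts per Ensembl gene for each library. The submitters' processing notes name bcl2fastq 2.20.0.422, Bowtie2 2.3.5.1, SAMtools 1.9, HTSeq 0.9.1 and hg19/GRCh37, and the strand setting is not given in the sources used here. Genes took 52.7% to 54.2% of reads, and 24.6% to 26.1% were set aside for low alignment quality, as reads shared by near-identical copies can be. The 5 summary lines per file stayed out of library sizes, and the 37 genes of the mitochondrial chromosome had 0 counts. GENCODE 29 named 52526 of 63677 identifiers, and those without a name held 0.907% of gene counts.

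Counts were fitted in edgeR 4.0.16 (R 4.3.3, limma 3.58.1) after filterByExpr (minimum count 10, minimum total 15) and TMM scaling, by the quasi-likelihood test with group and line number, since the methods of the study describe a paired analysis. p-values were adjusted over all 16756 tested genes by Benjamini-Hochberg, with a threshold of 0.05. Functions were tested on simulated data. CPM per kb uses the summed length of annotated exons. Figures were drawn with matplotlib. Promoters are from RefSeq (GRCh38.p14).

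Named genes were the 5 members, in each pathway list the called genes or else the 3 with the smallest p, 15 genes fixed by name, 3 protein-coding neighbours on each side of a member and the 5 genes most correlated with SFXN3, and of the neighbours those of SFXN3 are described singly. A gene that the rule names in the folate list is not reported here. Members and lists were chosen with earlier results of these data known. The precursor B-cell markers named singly were named after their values were seen. Alternatives were other scalings, filters, DESeq2 1.42.0, no line number, length and GC splines, and leaving out each pair of lines.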

Additional observations from a re-analysis of the deposited data

Results flagged for a closer look

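In 156 groups of 5 libraries, the library farthest from its neighbour was examined, and in 15 its gap exceeded 0.71 of the group's range, where chance gives about 1 in 20 groups, or 7.8. SFXN3 and the genes chosen for their likeness to it were selected on these values. Without them, and without sums and ratios that hold SFXN3, 11 of 134 groups exceeded it beside 6.7 by chance, and 1 of those 11 was at VENins line 4. VENins line 4 stood above the other VENins lines for SFXN3 (gap 0.76 of the range), SFXN4 (0.884), ADGRE5 (0.753) and FRMPD1 (0.835). VENins line 5 stood apart for SLC38A2 (0.852, low at 378 CPM), TIMM29 (0.752, high at 22.4 CPM) and the summed precursor B-cell markers (0.749, high at 5094 CPM). VENins line 2 stood apart for TMEM70 (0.719, high) and TWNK (0.788, low). Among VENsens lines, line 1 was high for SFXN5 (0.787) and SHMT2 (0.823), line 2 low for SMYD5 (0.749, 37.1 CPM), for TOMM40 (0.779, 63.1 CPM) and for the ratio of SFXN3 to SFXN1 counts (0.723), and line 3 high for TIMM29 (0.751, 21.6 CPM).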

How the results depend on the processing

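The log2 fold changes of the 4 paralogues kept their direction under all 13 alternatives, and none of the 4 passed the threshold in any. The lowest adjusted p was 0.290, for SFXN2 in DESeq2 with no line number, and SFXN2 ranged from 0.290 to 0.680 over the alternatives. SFXN1 ranged from -0.08 to -0.01, SFXN2 from -0.16 to -0.07, SFXN4 from 0.01 to 0.14 and SFXN5 from -0.14 to -0.03. SFXN3 ranged from -0.51 (without pair 4) to -0.39 (without pair 1), and its direction follows from its selection.

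The number of genes called between the groups moved most. The 33 genes of edgeR with the line number became 664 with no filter on low counts (32884 genes tested). They became 217 in DESeq2 with the line number as a replicate block and 739 in DESeq2 with no block. With length and GC splines in the fit with the replicate block, 156 were called (16312 genes tested). Without the replicate block edgeR called 149. Leaving out one pair of lines gave 6 (without pair 2) to 331 (without pair 4). The cause of these shifts was not tested. In the 8 pathway lists the 0 calls became 3 with no filter, 1 in edgeR with no block, 1 in DESeq2 with the block, 7 in DESeq2 with no block, and 0 to 2 when a pair was left out.

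Line numbers shared by the groups did not pair the libraries in the data: the correlation of deviations from the group means was -0.103 to 0.028 for libraries of the same number, and 0 lines matched their own number best. No call on a paralogue of SFXN3 changed with the replicate block. The median log2 fold change of the folate list ran from -0.05 to 0.01 and that of serine synthesis from -0.01 to 0.12 when a pair was left out, so their sign is not fixed. The other medians kept their sign, but TIM22 ran from 0.02 to 0.11, haem and iron import from 0.01 to 0.08 and glycine cleavage from -0.06 to -0.02. As a check for libraries deposited more than once, pairs within a group were compared (chi-square over degrees of freedom 1.92 to 14.2, with the 4 pairs that hold VENins line 5 at 13.2 or more), and each library was counted as its own sample. With the length of the principal transcript, chosen after seeing the data, SFXN1 to SFXN5 stood at 23.8, 3.90, 16.6, 28.6 and 2.75 CPM per kb in VENsens lines. These means had the same order of abundance. Depth limits SFXN5 most, with 227 to 324 counts per library.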
